A study of Bos taurus with 15 samples.

Results

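Transcripts of 10 proteins that the endometrium, the lining of the uterus, releases into the uterine lumen were followed in biopsies from 15 beef heifers (Bos taurus). The genes were SERPINA14, CST3, CST6, LTF, SPP1, RBP4, TINAGL1, LGALS9, GRP and APOA1, chosen by name as the entries of these symbols among the 32671 entries of the deposited gene table. Of the 10 entries, 9 had counts and were among the 19962 entries tested, and the entry named LGALS9 held no read in any library. Where a biopsy holds several cell types, as here, fewer cells of a type and less RNA per cell cannot be told apart, and RNA was measured, not protein in the fluid.

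The labels gave 3 fertility classes of 5 heifers each, Infertile, Sub-fertile and High-fertile, all sampled on day 14 of pregnancy. All heifers shared the same hormone synchronisation with prostaglandin, GnRH, an intravaginal progesterone insert and estradiol, and all received an embryo produced in vivo on day 7, in the uterine horn on the side of the corpus luteum. The tissue was taken with biopsy forceps from that horn once the uterus had been flushed, so the 3 classes differed by label in fertility class alone. The sources used here do not give breed, age, the way heifers were classed or the contents of the flush.

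Before it attaches, the ruminant conceptus (the embryo with its membranes) floats free in the uterine lumen and lives on histotroph, the mixture of proteins and nutrients that the uterine glands and surface epithelium secrete under progesterone. Protease inhibitors, carriers of iron, vitamin A and lipid, adhesion proteins and regulatory peptides are among the known parts of this fluid. Day 14 falls in the period when the bovine conceptus elongates and begins to signal with interferon tau.

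The libraries held 38017136 to 62858724 counts. The 16 markers of gland and surface epithelium were all measured, and none was at 0 in every library. Their summed level was 1257 to 2026 CPM (counts scaled to library size) in Infertile, 768 to 2039 CPM in the Sub-fertile and 1192 to 1642 CPM in High-fertile libraries. The counts of 372 genes described as pseudogenes or ribosomal RNA sorted the libraries into 3 sets without use of the class. High-fertile replicate 1 and Infertile replicate 2 stood apart as a set of 2. Infertile replicates 3 and 5 with Sub-fertile replicates 1, 2 and 5 made a set of 5, and the other 8 libraries (Infertile 1 and 4, Sub-fertile 3 and 4, High-fertile 2 to 5) a set of 8. The 5-library set had no High-fertile library, so class and set were partly confounded. Between the 5- and the 8-library set 30.7% of all tested genes differed (edgeR quasi-likelihood test, class in the model, adjusted p under 0.05), and of the 9 measured secreted protein genes only TINAGL1 did.

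The 9 genes spanned a wide range of abundance. By median FPKM over the 15 libraries (fragments relative to gene length and sequencing depth), GRP came first at 2213, followed by RBP4 at 200.01, CST3 at 135.6, CST6 at 132.2, APOA1 at 53.1, TINAGL1 at 39.6, LTF at 22.5, SERPINA14 at 5.51 and SPP1 at 2.81. GRP exceeded RBP4 in 15 of 15 libraries and RBP4 exceeded CST3 in 14. CST3 exceeded CST6 in only 7 of 15, so the order of these neighbours was not set. The other neighbours kept their order in 10 to 14 libraries. The entry CST6 gave a length of 254 bases from its deposited counts and FPKM, the shortest of the 9 genes (others 698 to 2640), which bears on its FPKM. GRP had the highest FPKM of the whole table in 7 libraries and a median rank of 2, and it took 0.0687% to 0.460% of all counts. In relative spread over heifers, CST3 and RBP4 were the steadiest, with coefficients of variation of 24.8% and 25.0%, and SPP1 (173%) and LTF (134%) were the most variable.

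**Figure D1:**
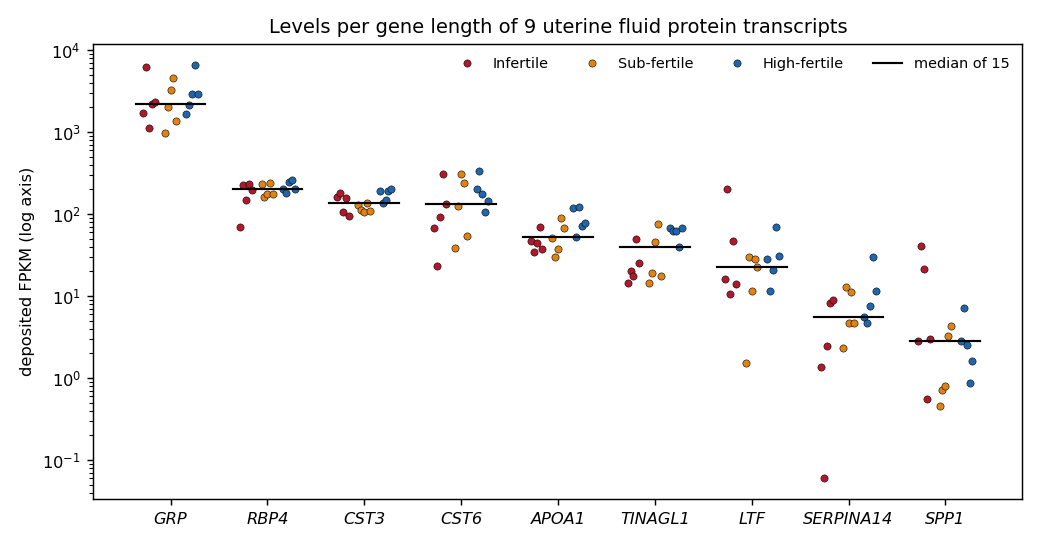
Deposited FPKM of the 9 measured secreted protein genes in each of the 15 libraries, on a log axis, in order of their median. GRP sits highest in every library, at 982 to 6605 FPKM, and SPP1 and SERPINA14 reach down to 0.450 and 0.0600 FPKM.

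No class difference passed the threshold for any of the 9 genes. In the edgeR quasi-likelihood test adjusted over all 19962 genes, 0 of 9 were called in Sub-fertile against High-fertile, in Infertile against High-fertile and in Infertile against Sub-fertile endometrium, as were 0.00% of all genes in each. All 9 had negative log2 fold changes in Sub-fertile against High-fertile heifers, where 49.0% of all tested genes were negative. Their median log2 fold change was -0.64, against 0.013 over all tested genes. In Infertile against High-fertile heifers 7 of 9 were negative, against 46.5% of all genes, with a median of -0.35 against 0.036. Infertile against Sub-fertile heifers had 5 negative and 4 positive, where 45.3% of all genes were negative, with a median of -0.19 against 0.025. The first 2 comparisons share the High-fertile libraries. The plot of the fold changes gives each value with its error.

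At an unadjusted p under 0.05, CST3 and APOA1 were lower in Sub-fertile than in High-fertile heifers, 2 of 9 genes where 7.14% of all genes were lower at that level. None of the 9 was higher at that level, against 6.58% of all genes. TINAGL1 and APOA1 were lower in Infertile than in High-fertile heifers, 2 of 9 against 3.89% of all genes, and SPP1 was higher, 1 of 9 against 7.14%. SPP1 was also higher in Infertile than in Sub-fertile heifers, 1 of 9 against 1.91%, and 0 of 9 were lower, against 0.721%. In the joint test of any difference among the classes, CST3, SPP1, TINAGL1 and APOA1 reached that level, 4 of 9 against 8.42%, each with an adjusted p of 0.550. For none of the 9 genes did the ranges of 2 classes stand clear of each other, a pattern found in 5.07%, 2.22% and 0.205% of all genes in the 3 comparisons in the order above.

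**Figure D2:**
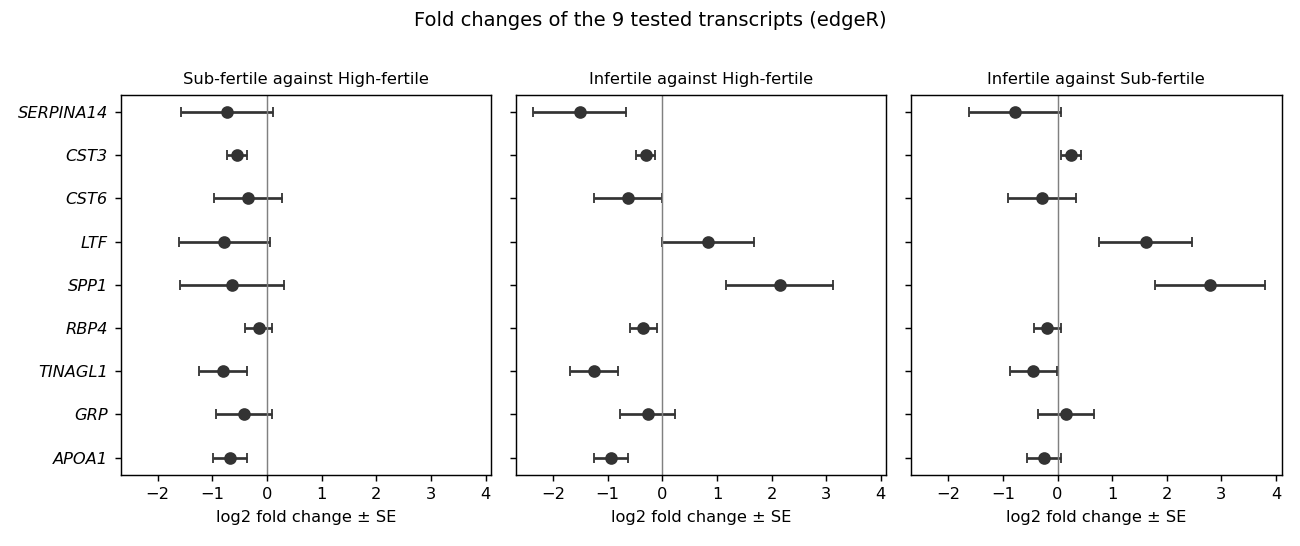
Log2 fold changes with standard errors from the edgeR fit over all 15 libraries for the 9 measured secreted protein genes in the 3 comparisons. All 9 values lie below 0 in Sub-fertile against High-fertile endometrium and 7 of 9 in Infertile against High-fertile, and SPP1 in the comparisons that involve the Infertile class lies farthest above 0 (2.15 and 2.79).

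The genes of the serpin and cystatin families came first. SERPINA14, the uterine serpin or uterine milk protein, is a major gland product under progesterone, best known from sheep. It was at 2.05, 0.0851, 3.40, 11.4 and 13.03 CPM in the Infertile libraries (replicates 1 to 5). The Sub-fertile libraries had 3.32, 18.2, 6.42, 16.5 and 6.76 CPM, and the High-fertile libraries 7.89, 6.67, 10.8, 43.7 and 16.5 CPM. Infertile replicate 2 had the least, from 4 reads, and High-fertile replicate 4 the most, and the 3 classes overlapped. The means were 5.99 ± 5.82 CPM in Infertile and 10.2 ± 6.66 CPM in Sub-fertile, against 17.1 ± 15.3 CPM in High-fertile heifers (SD, n = 5 each). SERPINA14 had a log2 fold change of -1.51 ± 0.858 in Infertile against High-fertile (SE; edgeR adjusted p = 0.499) and -0.74 ± 0.843 in Sub-fertile against High-fertile heifers (edgeR adjusted p = 0.649). Without High-fertile replicate 4 these values were -0.80 and -0.028. With the set as a covariate they were -2.07 and -1.35, and within the 8-library set -1.54 and -0.76.

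CST3, cystatin C, is a secreted inhibitor of lysosomal cysteine proteases such as the cathepsins. Its level was 126, 129.7, 74.7, 111 and 71.3 CPM in the Infertile, 94.3, 80.1, 75.3, 102 and 79.1 CPM in the Sub-fertile and 139, 98.4, 110.1, 140.2 and 145 CPM in the High-fertile libraries. Of the 5 Sub-fertile heifers, 4 lay below every High-fertile heifer, and the fifth lay above High-fertile replicate 2 alone. The Infertile heifers divided into 3 within the High-fertile range and 2 below it, replicates 3 and 5, which are the 2 of the 5-library set. Sub-fertile heifers averaged 86.2 ± 11.5 CPM and High-fertile heifers 127 ± 21.0 CPM (SD, n = 5 each). Their log2 fold change was -0.56 ± 0.181 (SE), with an unadjusted p of 0.00791 and an edgeR adjusted p of 0.360. That value was -0.28 with the set as a covariate and -0.49 within the 8-library set. CST3 was at 71.3 to 94.3 CPM in the 5-library set and 75.3 to 145 CPM in the 8-library set. Infertile heifers averaged 102 ± 27.7 CPM, with a log2 fold change of -0.31 ± 0.181 against High-fertile heifers (edgeR adjusted p = 0.510).

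CST6, cystatin E/M, is another secreted cystatin, which inhibits legumain and cathepsins L and V. It ranged widely in every class, with 18.3, 5.85, 22.6, 77.2 and 34.4 CPM in the Infertile, 9.77, 31.0, 74.2, 63.0 and 13.9 CPM in the Sub-fertile and 51.4, 84.4, 44.6, 27.0 and 36.9 CPM in the High-fertile libraries. The 4 lowest heifers were Infertile or Sub-fertile, and so were 3 of the 4 highest. The log2 fold change was -0.35 ± 0.622 in Sub-fertile and -0.63 ± 0.624 in Infertile against High-fertile heifers (edgeR adjusted p = 0.782 and 0.675). Within the 8-library set the value for Sub-fertile against High-fertile was 0.50, of opposite sign. The entry LOC104976285, described in the table as cystatin-M-like, followed CST6 across the libraries at 1.16 to 1.82 times its CPM. The log2 levels of the pair correlated at r = 0.982 over 15 libraries. Such near-parallel entries may share reads, so the level of CST6 is uncertain. With both entries summed, a choice made after the data were seen, the values over all libraries were -0.26 and -0.56.

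The cysteine proteases that cystatins inhibit were measured in the same libraries, 11 of 11. In Sub-fertile against High-fertile heifers 3 had positive and 8 negative fold changes, and 0 passed the threshold. CTSF (cathepsin F) was at 133 ± 24.2 CPM in Sub-fertile, against 199.5 ± 34.2 CPM in High-fertile heifers (-0.59 as a log2 fold change; edgeR adjusted p = 0.360). CTSV, the cathepsin that CST6 inhibits, was at 326 ± 23.7 CPM in Sub-fertile, against 269 ± 21.2 CPM in High-fertile heifers (0.28 as a log2 fold change; edgeR adjusted p = 0.360). Its lowest Sub-fertile heifer, at 301 CPM, lay just above the highest High-fertile heifer, at 296 CPM. Of all tested genes, 5.07% had classes that did not overlap in this comparison, in either direction. CTSV was named here for its small p within the list, so this separation does not single it out. CST6 overlapped between these classes. In Infertile against High-fertile heifers the list had 5 positive and 6 negative values. CTSF and CTSV again had the smallest p there, at log2 fold changes of -0.64 and 0.39 (edgeR adjusted p = 0.435 each). In Infertile against Sub-fertile heifers 8 were positive and 3 negative, led by CTSK and CTSL at 0.82 and 1.32 (edgeR adjusted p = 0.998 each).

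The carriers were the next group. RBP4, retinol-binding protein, which carries vitamin A, was at 87.5, 261, 168, 266 and 239.9 CPM in the Infertile, 273, 189, 198, 294 and 211 CPM in the Sub-fertile and 237, 215, 294, 315 and 237 CPM in the High-fertile libraries. All but 1 heifer lay between 168 and 315 CPM, and the classes overlapped. The exception, Infertile replicate 1, had a summed level of the 10 smooth muscle markers of 26525 CPM, against 645 to 12915 CPM in the other libraries. Whether this played a part in its RBP4 level was not tested. RBP4 had a log2 fold change of -0.16 ± 0.250 in Sub-fertile and -0.35 ± 0.250 in Infertile against High-fertile heifers (SE; edgeR adjusted p = 0.756 and 0.566).

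APOA1, apolipoprotein A-I, is the main protein of high-density lipoprotein and takes up cholesterol from cells. It was at 44.9, 30.9, 38.6, 61.7 and 34.4 CPM in the Infertile, 46.0, 26.9, 32.3, 84.3 and 61.5 CPM in the Sub-fertile and 108, 48.1, 111, 66.1 and 70.6 CPM in the High-fertile libraries. Of the 5 Infertile heifers, 4 lay below every High-fertile heifer, as did 3 of the 5 Sub-fertile heifers. Infertile heifers averaged 42.1 ± 12.1 CPM, Sub-fertile heifers 50.2 ± 23.3 CPM and High-fertile heifers 80.7 ± 27.5 CPM (SD, n = 5 each). The log2 fold change was -0.94 ± 0.315 in Infertile (unadjusted p = 0.00943, edgeR adjusted p = 0.435) and -0.68 ± 0.313 in Sub-fertile (unadjusted p = 0.0457, edgeR adjusted p = 0.360) against High-fertile heifers. With the set as a covariate the values were -0.80 and -0.48, and within the 8-library set -0.48 and -0.35.

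APOA1 is also made by the liver and circulates in plasma. The summed level of 10 liver and plasma protein markers was 4.44 to 8.07 CPM in the Infertile, 5.00 to 7.00 CPM in the Sub-fertile and 4.68 to 9.52 CPM in the High-fertile libraries, below APOA1 alone in each. The entry LOC104974214, described as apolipoprotein A-I-like, held 0.368% to 7.68% of the APOA1 level and did not track it (r = -0.01 over 15 libraries).

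LTF, lactoferrin, binds iron and is antimicrobial, and it is made by gland epithelium and stored in granules of neutrophils. The Infertile libraries had 45.2, 528, 27.0, 119.6 and 37.5 CPM, the Sub-fertile libraries 3.995, 77.5, 29.4, 76.8 and 59.9 CPM, and the High-fertile libraries 74.9, 30.5, 54.6, 185 and 80.2 CPM. Infertile replicate 2 was the highest of all, Sub-fertile replicate 1 the lowest, and the classes overlapped. LTF had a log2 fold change of 0.83 ± 0.837 in Infertile and -0.78 ± 0.837 in Sub-fertile against High-fertile heifers (SE; edgeR adjusted p = 0.678 and 0.629). Without Infertile replicate 2 the value for Infertile against High-fertile was -0.57, of opposite sign. With the set as a covariate the value for Sub-fertile against High-fertile was 0.021.

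The matrix and adhesion proteins differed from each other in pattern. SPP1, osteopontin, is a secreted protein that binds integrins on the uterine epithelium and the conceptus. It was at 4.90, 65.0, 33.2, 0.896 and 5.08 CPM in the Infertile, 0.731, 1.13, 1.27, 5.46 and 7.13 CPM in the Sub-fertile and 4.60, 11.8, 4.13, 1.41 and 2.62 CPM in the High-fertile libraries. Infertile replicates 2 and 3 were the highest of all 15, and the other 3 Infertile heifers lay within the range of the other classes. The means were 21.8 ± 27.4 CPM in Infertile and 3.14 ± 2.94 CPM in Sub-fertile, against 4.91 ± 4.04 CPM in High-fertile heifers (SD, n = 5 each). The log2 fold change was 2.79 ± 1.00 in Infertile against Sub-fertile (unadjusted p = 0.0142, edgeR adjusted p = 0.998) and 2.15 ± 0.978 in Infertile against High-fertile heifers (unadjusted p = 0.0439, edgeR adjusted p = 0.450). Without Infertile replicate 2 these were 1.80 and 1.17. Within the 8-library set, which holds neither of the high libraries, they were -0.22 and -0.79. In Sub-fertile against High-fertile heifers SPP1 had a log2 fold change of -0.64 ± 0.950 (edgeR adjusted p = 0.736).

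Infertile replicate 2 stood apart for several of these genes, with the least SERPINA14 and CST6, the most LTF and SPP1 and the second most GRP of the 15 libraries. Macrophages and neutrophils are known sources of SPP1 and LTF. The 10 neutrophil markers summed to 209.9 CPM in that library, against 15.6 to 49.0 CPM in the others. S100A12 at 121 CPM, S100A8 at 26.2 CPM and S100A9 at 25.0 CPM made up most of the sum. The neutrophil granule genes ELANE and MPO were at 0.0851 CPM each there, from 4 reads each, and CAMP was at 0 in every library. Its 10 macrophage markers summed to 226 CPM, while the highest sum, 256 CPM, was in High-fertile replicate 5, which had 2.62 CPM of SPP1. The other library high in SPP1, Infertile replicate 3, had sums of 41.0 CPM for neutrophil and 109.6 CPM for macrophage markers. The part of these cells in the LTF and SPP1 levels was not tested.

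**Figure D3:**
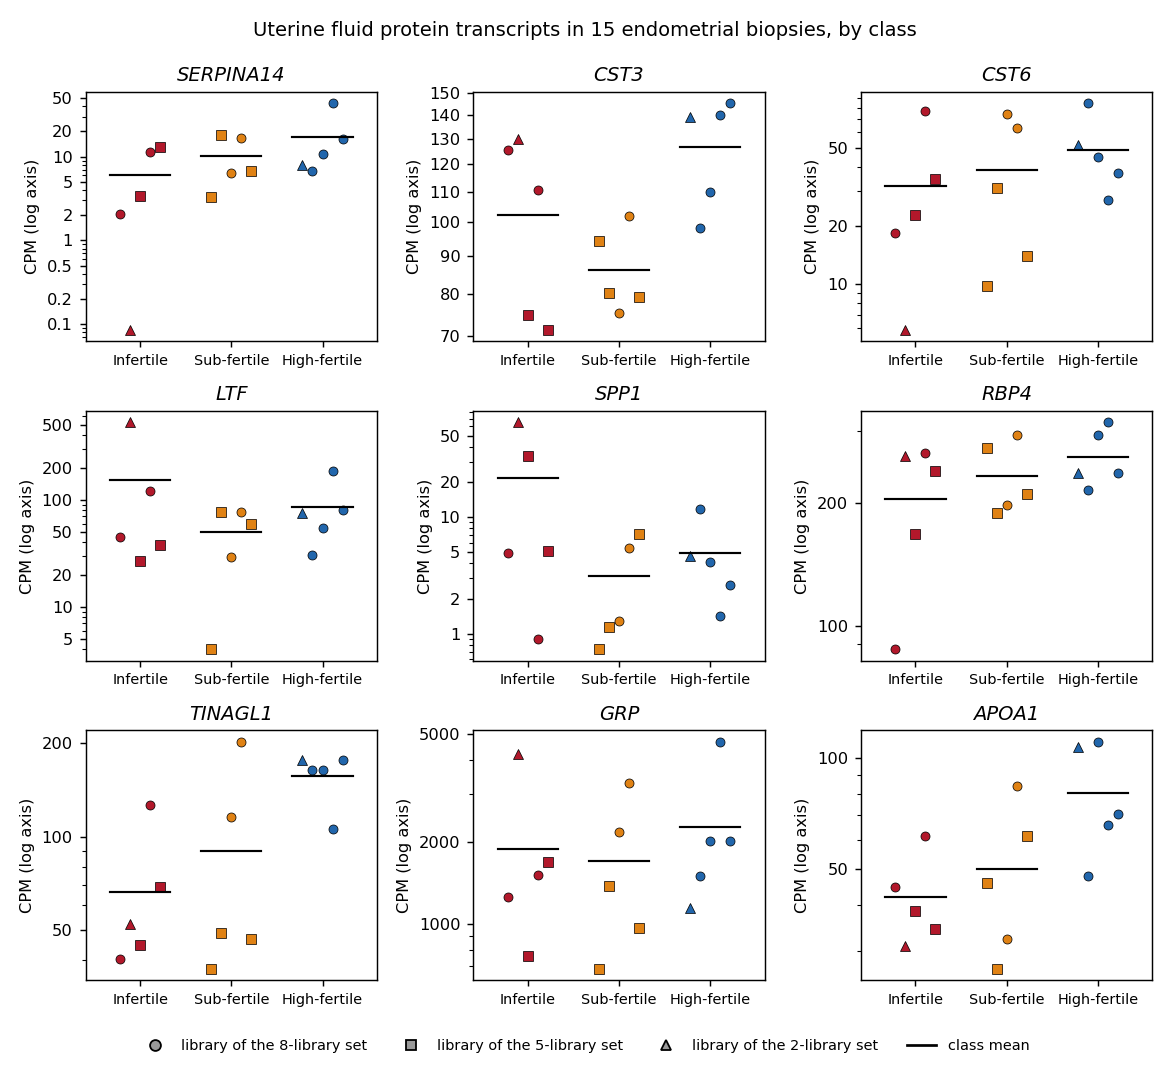
CPM of each of the 9 measured secreted protein genes by library, on log axes, grouped as Infertile, Sub-fertile and High-fertile, with marker shapes for the 3 sets of libraries and a line at the class mean. The classes overlap for every gene, and Infertile replicate 2 is the extreme library for SERPINA14 (0.0851 CPM), CST6 (5.85 CPM), LTF (528 CPM) and SPP1 (65.0 CPM).

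TINAGL1, tubulointerstitial nephritis antigen-like 1, is a secreted matrix glycoprotein related to cathepsin B but without protease activity. Its level was 40.3, 52.2, 44.5, 126 and 68.6 CPM in the Infertile, 37.4, 49.0, 115, 202 and 46.6 CPM in the Sub-fertile and 176, 164, 163, 105 and 177 CPM in the High-fertile libraries. A gap between 68.6 and 105 CPM divided the heifers into 7 below it, 4 Infertile and 3 Sub-fertile, and 8 above it, which were all 5 High-fertile heifers, 2 Sub-fertile and 1 Infertile. Infertile heifers averaged 66.4 ± 35.2 CPM, Sub-fertile heifers 90.1 ± 70.0 CPM and High-fertile heifers 157 ± 29.7 CPM (SD, n = 5 each). The log2 fold change was -1.24 ± 0.441 in Infertile (unadjusted p = 0.0129, edgeR adjusted p = 0.435) and -0.80 ± 0.437 in Sub-fertile (unadjusted p = 0.0862, edgeR adjusted p = 0.374) against High-fertile heifers.

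TINAGL1 was the only gene of the 9 past the threshold between the 5- and the 8-library set. The 5-library set lay at 37.4 to 68.6 CPM and the 8-library set at 40.3 to 202 CPM, a log2 difference of -1.15 ± 0.361 with class in the model (edgeR adjusted p = 0.0295). CST6 and GRP had differences of similar size, -1.12 each (edgeR adjusted p = 0.176 and 0.0978), and CST3 had -0.37 (edgeR adjusted p = 0.0949). LTF had -0.94, APOA1 -0.35 and RBP4 -0.039 (edgeR adjusted p = 0.462, 0.476 and 0.939). SERPINA14 (0.23) and SPP1 (0.62) had positive values. All 5 libraries of the 5-library set were below the TINAGL1 gap, together with Infertile replicates 1 and 2. With the set as a covariate the log2 fold change was -0.78 in Infertile and -0.44 in Sub-fertile against High-fertile heifers, and within the 8-library set -0.88 and 0.051. Without Sub-fertile replicate 4 the value for Sub-fertile against High-fertile over all sets was -1.34. Class and set cannot be fully told apart for this gene.

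LGALS9, galectin-9, is a lectin that binds beta-galactosides on cell surfaces and is known from the uterine epithelium and stroma. The entry of that name was at 0 counts in all 15 libraries, which allows a level of up to 0.0492 to 0.0783 CPM by library (3 counts, counting error only). A second entry, LGALS9-2, had counts in all libraries. It was chosen after its values were seen and is not among the 10 genes, and how the counting divided reads between the pair of entries is not known here. It was at 32.9, 39.4, 21.2, 58.0 and 25.2 CPM in the Infertile, 17.1, 25.5, 41.1, 56.2 and 30.5 CPM in the Sub-fertile and 55.2, 53.6, 38.4, 47.9 and 84.7 CPM in the High-fertile libraries. The highest library was High-fertile replicate 5 and the lowest Sub-fertile replicate 1, and the classes overlapped. LGALS9-2 had a log2 fold change of -0.66 ± 0.326 in Infertile and -0.72 ± 0.326 in Sub-fertile against High-fertile heifers (edgeR adjusted p = 0.461 and 0.360). LGALS9-2 also differed between the 5- and the 8-library set, at 17.1 to 30.5 CPM against 32.9 to 84.7 CPM (log2 difference -0.97, edgeR adjusted p = 0.00840).

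**Figure D4:**
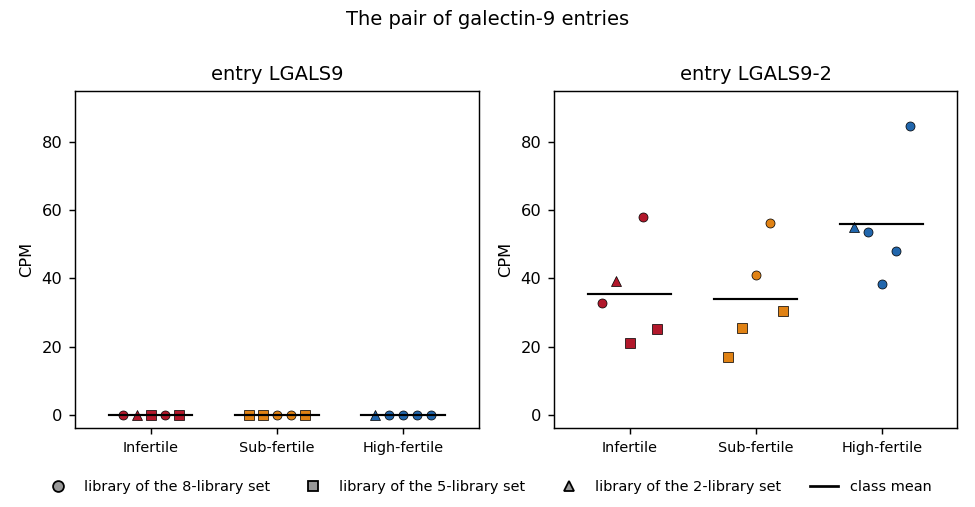
CPM by library of the entries LGALS9 (left) and LGALS9-2 (right), grouped as Infertile, Sub-fertile and High-fertile, with marker shapes for the 3 sets of libraries and a line at the class mean. LGALS9 is at 0 in all 15 libraries and LGALS9-2 at 17.1 to 84.7 CPM.

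GRP, gastrin-releasing peptide, is a peptide hormone that the uterine glands of ruminants secrete. It was at 1252, 4205, 759.7, 1513 and 1679 CPM in the Infertile, 682, 1379.9, 2169, 3285 and 964 CPM in the Sub-fertile and 1141, 1502, 2013, 4665 and 2013 CPM in the High-fertile libraries. The highest heifers were High-fertile replicate 4, Infertile replicate 2 and Sub-fertile replicate 4, and the classes overlapped. The means were 1882 ± 1344 CPM in Infertile and 1696 ± 1050.1 CPM in Sub-fertile, against 2267 ± 1390.3 CPM in High-fertile heifers (SD, n = 5 each). GRP had a log2 fold change of -0.27 ± 0.509 in Infertile and -0.42 ± 0.509 in Sub-fertile against High-fertile heifers (SE; edgeR adjusted p = 0.843 and 0.671). Without High-fertile replicate 4 these values were 0.17 and 0.025, of opposite sign. GRP was at 682 to 1679 CPM in the 5-library set and 1252 to 4665 CPM in the 8-library set (edgeR adjusted p = 0.0978). In Infertile against Sub-fertile heifers GRP had a log2 fold change of 0.15 ± 0.509, and LTF stood at 1.61 ± 0.852, CST3 at 0.25, RBP4 at -0.19, APOA1 at -0.25, CST6 at -0.28, TINAGL1 at -0.44 and SERPINA14 at -0.78 (edgeR adjusted p = 0.998 each). Without Infertile replicate 2 the value of LTF was 0.21 and that of GRP -0.38.

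The 9 genes did not vary as a block across heifers. Of their 36 pairs, 27 had a positive Pearson r of log2 CPM over the 15 libraries, with a median of 0.216. CST6 and TINAGL1 had the highest r, 0.781 (permutation p = 0.0005, adjusted over 36 pairs 0.018), with Spearman's rho 0.779 (permutation p = 0.00099, adjusted 0.0356). Without the 2 libraries with CST6 farthest from its median, r was 0.784 (adjusted p = 0.09). Over the 13 libraries without the set of 2 it was 0.819 (permutation p = 0.0009, adjusted 0.0284), and within the 8-library set 0.676 (exact permutation p = 0.0513). On each side of the gap in TINAGL1, a split seen in the data that itself narrows the range of TINAGL1, r was 0.377 among the 7 libraries below it and 0.150 among the 8 above it.

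LTF and GRP had r = 0.729 over the 15 libraries (permutation p = 0.00164, adjusted 0.0295) and rho = 0.575 (permutation p = 0.0275, adjusted 0.215). Without Infertile replicate 2 and Sub-fertile replicate 1, the extremes of LTF, r was 0.524 and not past the threshold (adjusted p = 0.251), over a narrower range of LTF. Over the 13 libraries without the set of 2 it was 0.683 (permutation p = 0.0107, adjusted 0.0643). Within the 8-library set r was 0.572 (exact permutation p = 0.139). SERPINA14 and GRP, both gland products, had r = 0.028 over 15 libraries. Without the set of 2 their r was 0.779 (permutation p = 0.00158, adjusted 0.0284), and it was 0.838 within the 8-library set. This pair was singled out after its values were seen.

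**Figure D5:**
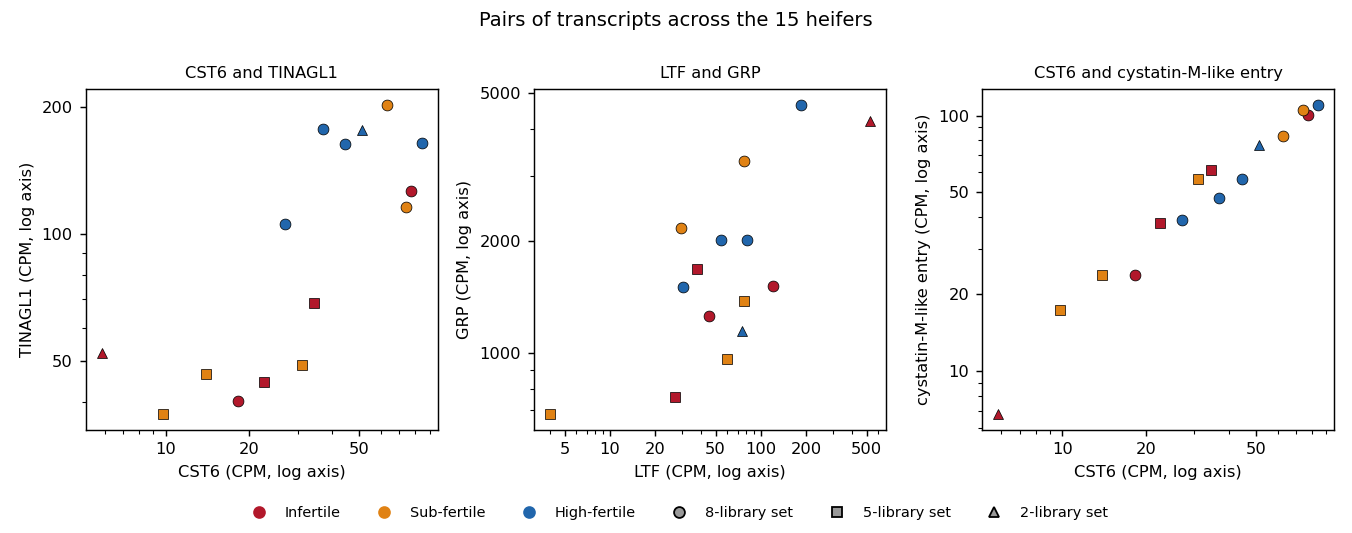
CPM of CST6 and TINAGL1 (left), LTF and GRP (middle) and CST6 and its cystatin-M-like neighbour (right) in the 15 libraries, each on log axes with the first gene along the bottom, with colours for the classes and marker shapes for the 3 sets of libraries. TINAGL1 leaves a gap between 68.6 and 105 CPM, and Infertile replicate 2 (LTF 528 CPM, GRP 4205 CPM) and Sub-fertile replicate 1 (LTF 3.995 CPM, GRP 682 CPM) are the extremes of LTF, and the right panel forms a narrow line (r = 0.982).

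For each gene, the genes most alike by Pearson r of log2 CPM over the 15 libraries were read from 13997 genes, as a description, since all points share the libraries and their sets. The closest to CST6 was SH2D3A at 0.960, to SERPINA14 FAM63A at 0.951, to CST3 NME4 at 0.949, to TINAGL1 TRIM25 at 0.944, and to GRP SDCBP2 and to APOA1 HSD17B1 at 0.921 each. LTF was closest to MUC5AC, a gel-forming mucin, at 0.866, followed by ATP6V1C2 and the secreted mucosal protein DMBT1 at 0.840 each. RBP4 had its highest value with NAPB at 0.837 and SPP1 with GABRP at 0.785. The galectin-3-binding protein LGALS3BP came after C21H15orf39 for TINAGL1 at 0.938. Next in order were APBA1 (0.935) and EZH1 (0.932) for SERPINA14, AEBP1 (0.934) and SYDE1 (0.928) for CST3, MATK (0.955) and MYL3 (0.935) for CST6, and C21H15orf39 (0.940) for TINAGL1. A4GALT (0.905) and TMEM44 (0.886) followed for GRP, JOSD1 (0.870) and BACH2 (0.860) for APOA1, SETDB1 (0.783) and SGSM1 (0.778) for RBP4, and UBE2H (0.766) and LMNB1 (0.747) for SPP1. Within the 8-library set the first-ranked genes of CST6, CST3, SERPINA14, GRP and RBP4 were at 0.961, 0.932, 0.893, 0.918 and 0.914, while that of LTF was at 0.660.

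Other known proteins of uterine fluid were counted in the same way. Of 32 on the list 30 were tested, and 0 passed the threshold in any comparison. In Sub-fertile against High-fertile heifers 22 had negative and 8 positive log2 fold changes, with a median of -0.36. Of all tested genes 49.0% were negative there, with a median of 0.013. Class and set were partly confounded for these genes too. GSN (gelsolin, which severs actin filaments) was at 776 ± 227 CPM in Sub-fertile, against 1413 ± 293 CPM in High-fertile heifers (-0.87 as a log2 fold change; edgeR adjusted p = 0.360). TIMP1, an inhibitor of matrix metalloproteinases, was at 42.5 ± 7.53 CPM in Sub-fertile, against 63.6 ± 10.46 CPM in High-fertile heifers (-0.58 as a log2 fold change; edgeR adjusted p = 0.360). All Sub-fertile values of TIMP1 (31.2 to 50.1 CPM) lay below all High-fertile values (50.6 to 76.4 CPM), by a small margin. Such a separation, in either direction, was found in 5.07% of all tested genes in this comparison.

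In Infertile against High-fertile heifers the same list had 23 negative and 7 positive values, with a median of -0.35. Of all tested genes 46.5% were negative there, with a median of 0.036. GSN was at 812 ± 381 CPM in Infertile and 1413 ± 293 CPM in High-fertile heifers (-0.80 as a log2 fold change). CSTB, cystatin B, which acts inside cells, was at 4.68 ± 4.03 CPM in Infertile and 1.25 ± 0.454 CPM in High-fertile heifers (1.91 as a log2 fold change; edgeR adjusted p = 0.439). The table also has an entry CSTB-2, so its reads may have been split. Infertile against Sub-fertile heifers had 18 positive and 12 negative values, with a median of 0.07, led by IGFBP3 (0.87) and MUC1 (0.63). Of all tested genes 45.3% were negative in that comparison. These shares over all genes apply to the other lists as well.

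Receptors and binding partners of the secreted proteins, such as integrins, lipoprotein receptors and retinoid-binding proteins, had 22 of 26 members tested. They had 13 negative and 9 positive log2 fold changes both in Sub-fertile and in Infertile against High-fertile heifers, with medians of -0.19 and -0.07, and 0 passed the threshold. ITGA5, an integrin chain, was at 73.1 ± 23.8 CPM in Sub-fertile, against 118 ± 33.3 CPM in High-fertile heifers (-0.69 as a log2 fold change; edgeR adjusted p = 0.360). The phospholipid transfer protein PLTP had -0.58 in the same comparison. LCAT, the plasma enzyme that APOA1 activates, was at 36.6 ± 10.3 CPM in Infertile and 59.1 ± 16.5 CPM in High-fertile heifers (-0.69 as a log2 fold change; edgeR adjusted p = 0.435). LRP1, a lipoprotein receptor, had -0.70 in that comparison. In Infertile against Sub-fertile heifers 16 were positive and 6 negative, with CD44, a receptor for osteopontin, at 0.57 and CRABP2 at 0.99.

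Relatives of the 10 genes (other cystatins, galectins, serpins and apolipoproteins) had 19 of 32 members tested. The log2 fold changes were negative for 13 and positive for 6 in Sub-fertile, and negative for 16 and positive for 3 in Infertile, against High-fertile heifers, with 0 past the threshold. APOE, another apolipoprotein, was at 152 ± 56.4 CPM in Sub-fertile, against 318 ± 112 CPM in High-fertile heifers (-1.06 as a log2 fold change; edgeR adjusted p = 0.360), in the same direction as APOA1, and APOA4, at under 1 CPM, had -0.93. LGALS4, a further galectin, was at 18.9 ± 6.21 CPM in Infertile and 26.3 ± 2.65 CPM in High-fertile heifers (-0.48 as a log2 fold change; edgeR adjusted p = 0.446). CSTB, counted here too, had the smallest p of this list in Infertile against High-fertile heifers. Infertile against Sub-fertile heifers had 11 positive and 8 negative values, led by SERPINA1 at -2.17 and CSTB at 0.89.

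Because progesterone drives several of these proteins, 19 progesterone-responsive endometrial genes, LTF among them, were set beside them. The list was not divided by the direction of the response, so its counts and medians are not a measure of progesterone action. They had 12 negative and 7 positive log2 fold changes in Sub-fertile against High-fertile heifers and a median of -0.06. SLC2A1, a glucose transporter, had -0.49 and IGFBP3 -0.51. In Infertile against High-fertile heifers 9 were negative and 10 positive, with a median of 0.05, CTSL at 1.53 and DGAT2 at -0.90. In Infertile against Sub-fertile heifers 6 were negative and 13 positive, with a median of 0.29, OXTR, the oxytocin receptor, at 2.76 and IGFBP3 at 0.87. OXTR ranged from 1.43 to 176 CPM in the Infertile and from 3.12 to 21.0 CPM in the Sub-fertile libraries. None of the 19 passed the threshold in any of the 3 comparisons.

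Markers of the cell types that a biopsy can hold were set beside these values. The 16 gland and surface epithelium markers had 9 negative and 7 positive fold changes in Sub-fertile and 7 negative and 9 positive in Infertile against High-fertile heifers. In Sub-fertile against High-fertile heifers, where all 9 secreted protein genes had negative values, so did 10 of 10 smooth muscle markers (median log2 fold change -1.06), 9 of 10 endothelial markers (-0.44) and 9 of 10 stromal fibroblast markers (-0.18). In Infertile against High-fertile heifers 4 of 10 smooth muscle, 9 of 10 endothelial and 7 of 10 stromal markers were negative. Of all tested genes 49.0% were negative in the first and 46.5% in the second of these comparisons. The epithelial markers went both ways in Infertile replicate 2, where they summed to 1520 CPM. KRT7 was at 113.8 CPM there, against a median of 12.1 CPM, and KRT19, MUC1, PAX8 and SPINT1 were also highest there. Among those below their medians were EPCAM (285 against 420 CPM), CLDN4 (35.0 against 86.1 CPM), CDH1 (142 against 166 CPM) and KRT18 (101 against 114 CPM). All 10 ciliated cell markers had positive fold changes in Infertile against High-fertile heifers, with a median log2 of 1.07. At an unadjusted p under 0.05 (edgeR) 8 of these 10 were higher there, against 7.14% of all genes. At that level 4 of 10 endothelial markers were lower, against 3.89% of all genes. The summed levels of the ciliated cell markers were 155 to 546 CPM in the Infertile, 127 to 491 CPM in the Sub-fertile and 115 to 237 CPM in the High-fertile libraries. In Sub-fertile against High-fertile heifers 9 of 10 ciliated cell markers were positive too, with a median log2 of 0.75. The median ciliated sum was 359 CPM in the 5-library and 188 CPM in the 8-library set. The endothelial sums had medians of 920 and 1095 CPM in these sets. The 5-library set had no High-fertile library, so class and set were partly confounded here as well. The 10 macrophage markers were also all negative in Sub-fertile against High-fertile heifers, with sums of 90.2 to 124 CPM in the Sub-fertile and 122 to 256 CPM in High-fertile libraries. The 6 measured genes of the trophoblast list summed to 3.43 to 24.8 CPM in the Infertile, 3.30 to 8.87 CPM in the Sub-fertile and 3.76 to 14.9 CPM in the High-fertile libraries. PAG1 made up 24.2 CPM of the highest sum, in Infertile replicate 1, whose smooth muscle sum was also the highest, and 13.3 CPM of the sum in High-fertile replicate 1. PAG2, PAG8 and CDX2 stayed at or below 0.131, 0.122 and 0.613 CPM and TKDP1 at 0 in every library, so the sum is not a measure of conceptus tissue. None of these marker lists had a gene past the threshold, and their part in the values of the secreted protein genes was not tested.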

How the data were processed

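Per the labels' protocols, RNeasy-purified RNA of each heifer went into 1 stranded TruSeq mRNA library. The deposited table holds whole-number read counts per gene and the authors' FPKM values. The submitters' processing notes name FastQC, Subread, featureCounts, edgeR and the genome build UMD3.1. The sources used here do not give versions, the strand setting, the treatment of multimapping reads or sequencing batches. The RefSeq table used for names is of another assembly, so no coordinates are given.

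The deposited counts went into edgeR 4.0.16 (R 4.3.3): filterByExpr by class, TMM scaling, and 1 robust quasi-likelihood fit over all 15 libraries with a mean per class. P values were two-sided and adjusted by the Benjamini-Hochberg method over 19962 genes, with a threshold of 0.05. CPM used library size times TMM factor, and log2 CPM a prior count of 2. Deposited FPKM served only to compare levels between genes. Correlations used 100000 permutations, or exact ones within the 8-library set, over 36 pairs in place of the 45 planned, because LGALS9 had no counts. The 3 sets of libraries came from average-linkage clustering, and their technical origin is inferred.

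Named beside the 10 genes were, by rule, the 2 genes of each list with the smallest p per comparison and the 3 genes most alike (mean CPM of at least 1). For the marker lists these are given in part. The genes and lists were chosen with earlier results of these data known. Alternatives tried were RLE scaling, library size alone, no filter, a filter of 1 CPM in 5 libraries, only the libraries compared, the set as a covariate, the 8-library set, leaving out libraries, limma-voom (limma 3.58.1) and DESeq2 1.42.0. The test script was checked on simulated counts.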

Additional observations from a re-analysis of the deposited data

Results flagged for a closer look

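In 5 places 1 heifer lay far from the other 4 of its class, by Dixon's gap criterion for 5 samples (critical ratio 0.71). With 27 groups checked, chance alone gives about 1.35 such flags if values are normal and groups independent. Neither was tested, CPM was used without a log, and every flag fell in High-fertile replicate 4 or Infertile replicate 2. The number of flags can therefore not be weighed against chance. SERPINA14 was at 43.7 CPM in High-fertile replicate 4, against 6.67 to 16.5 CPM in the other High-fertile heifers. GRP was at 4665 CPM in the same heifer, against 1141 to 2013 CPM, and TINAGL1 was at 105 CPM there, below the others at 163 to 177 CPM. LTF was at 528 CPM in Infertile replicate 2, against 27.0 to 119.6 CPM in the other Infertile heifers. GRP was at 4205 CPM in that heifer, against 759.7 to 1679 CPM.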

How the results depend on the processing

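No secreted protein gene passed the threshold between classes under any setting, and 654 of 675 alternative fold changes kept their sign. With the set as a covariate the sign turned for LTF (0.021) and GRP (0.11) in Sub-fertile against High-fertile, and for GRP in Infertile against High-fertile (0.068) and against Sub-fertile (-0.039). In the 8-library set it turned for CST6 (0.50), TINAGL1 (0.051) and GRP (0.088) in Sub-fertile against High-fertile, LTF (-0.10) and SPP1 (-0.79) in Infertile against High-fertile, and SPP1 (-0.22) and GRP (-0.98) in Infertile against Sub-fertile. Without both libraries that stood apart it turned for LTF in Infertile against High-fertile (-0.61) and GRP in Infertile against Sub-fertile (-0.38). Leaving out 1 library gave log2 fold changes from -0.57 to 1.34 for LTF and -0.80 to 0.17 for GRP in Infertile against High-fertile, and -0.80 to 0.025 for GRP in Sub-fertile against High-fertile. In Infertile against Sub-fertile the ranges were -0.38 to 0.54 for GRP, -0.92 to 0.085 for CST6, -0.81 to 0.10 for TINAGL1 and -0.42 to 0.031 for APOA1. Calls over all genes in Sub-fertile against High-fertile were 0 to 3 without 1 library (3 without Infertile replicate 5 or High-fertile replicate 1, and 1 without Infertile replicate 1 or High-fertile replicate 3), 3 without both that stood apart and 18 with DESeq2. DESeq2 called 34 in Infertile against High-fertile and 11 in Infertile against Sub-fertile, and limma-voom 1 in each of these and 1 for any class difference. With edgeR 2738, 2201 and 525 genes were at an unadjusted p under 0.05 in the 3 comparisons, and 1681 in the joint test. The pairs of genes past the threshold for r were 2 over 15 libraries, also 2 with library size alone and 2 over the 13 libraries (CST6 with TINAGL1 and SERPINA14 with GRP), 0 in the 8-library set and 0 without the 2 farthest libraries. The cause of these changes was not tested, beyond the fewer libraries. Each library was 1 heifer of 1 class and the labels name no pairs, so no paired analysis was made. The labels give no replicate numbers, and those used here only name heifers in the order of the sample records. The lowest levels, such as 4 reads of SERPINA14, carry the largest counting error, and 5 heifers per class limit the precision.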
